A study of Mus musculus with 6 samples.

Results

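The LIMK, cofilin and actomyosin group comprises 10 genes, followed here in mouse liver with and without hepatocyte Pak4. They were chosen by symbol as actin regulators and effectors that act below the p21-activated kinases, and all 10 were found among the 45777 genes of the deposited table. The Pak4_KO group held 3 liver libraries from C57BL/6 mice of 10 weeks with both Pak4 alleles floxed (flanked by sites for Cre recombinase) and an Alb-Cre transgene. The WT group held 3 liver libraries from mice of the same strain and age with the same floxed Pak4 alleles and no Cre named in the labels. Cre is driven there by the albumin promoter, which is active in hepatocytes and their precursors, and whole liver RNA mixes these with the other liver cells, so it does not show which cells lost Pak4. The labels number the libraries but not the animals, so p-values reflect how far these libraries differ from each other, which may be technical. Total reads ran from 39603272 to 52521400 per library.

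LIM kinases turn on when an upstream kinase, such as a p21-activated kinase, phosphorylates their activation loop. They then phosphorylate cofilin, a small protein that severs and disassembles actin filaments, and this switches cofilin off. Slingshot phosphatases remove that phosphate again. PAK4 is also known to phosphorylate the guanine nucleotide exchange factor GEF-H1 and the focal adhesion adaptor paxillin, and non-muscle myosin II pulls on the filaments that result. In hepatocytes this machinery shapes the actin belt around the bile canaliculi. All of these steps act on proteins, so mRNA levels show how much message the liver carries for each part and not how active it is.

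The coding stretches around the phosphorylated residues of the kinases and their substrates are shown because they are the link in the pathway and because they show how far each paralog pair differs. They are given 5′ to 3′ on the coding strand, from GENCODE M21 transcripts of GRCm38, with the codon of the phosphorylated residue in capitals. For cofilin this is the serine at codon 3, counted from the start codon, and for the LIM kinases the threonine of the activation loop.
Cfl1, codons 1 to 20: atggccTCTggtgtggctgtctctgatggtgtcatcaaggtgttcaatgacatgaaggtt
Cfl2, codons 1 to 20: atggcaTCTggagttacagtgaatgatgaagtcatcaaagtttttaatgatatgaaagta
Limk1, codons 499 to 518: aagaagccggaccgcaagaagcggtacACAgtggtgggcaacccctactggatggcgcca
Limk2, codons 496 to 515: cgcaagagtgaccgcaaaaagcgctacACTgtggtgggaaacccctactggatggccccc
Over the whole coding sequence Cfl1 and Cfl2 matched at 71.5% of aligned bases, with no identical run longer than 11 bases. Limk1 and Limk2 matched at 69.9%, with no identical run longer than 20 bases. Among annotated transcripts at least 85% identical over much of their length, Cfl1 had 5 other genes in the table, Actb 13, Myl9 2 and the other 7 genes none.

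Pak4, the deleted kinase (chromosome 7, 28558819 to 28598184, GRCm38), had 58, 106 and 95 reads in Pak4_KO libraries, against 235, 340 and 324 reads in WT libraries. The groups did not overlap. The log2 fold change was -1.82 (SE 0.24, edgeR adjusted p = 0.0169), and the call was lost when Pak4_KO replicate 3 (adjusted p = 0.0936), WT replicate 1 (0.0562) or WT replicate 2 (0.0608) was left out. Among its relatives, Pak2 was the most abundant by length, at 16.5 ± 3.57 TPM in Pak4_KO and 16.0 ± 1.98 TPM in WT (SD, n = 3 each; log2 fold change -0.04, SE 0.16, edgeR adjusted p = 0.986). Pak1 had 83, 100 and 123 reads in Pak4_KO libraries, against 44, 53 and 89 reads in WT libraries (log2 fold change 0.71, SE 0.28, edgeR adjusted p = 0.560). Scaled to a common library total (CPM), these were 1.96, 2.12 and 2.46 in Pak4_KO, against 1.11, 1.12 and 1.77 in WT. On that scale the groups did not overlap, where 7.35% of all tested genes were higher with no overlap. Pak3 had 14 reads over the Pak4_KO group and 3 over the WT group, Pak6 had 49 and 9, and Pak5, listed under its older symbol Pak7, had 0 in both, so these relatives were not tested.

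Per unit of transcript length, the more abundant members kept the same order in each library. TPM, which divides reads by gene length and sets every library to one total, put Actb first in each of the 6 libraries, at 808 to 1132 TPM, then Cfl1 at 87.0 to 109, Myh9 at 56.7 to 83.6, Cfl2 at 17.8 to 25.8 and Pxn at 10.2 to 13.9. The ranges of neighbours among these 5 did not overlap, and Pxn stood clear of Limk2 below it. The other 5 genes were rare and could not be ordered beyond their spread, with means over the 6 libraries of 3.06 TPM for Limk2, 2.26 for Arhgef2, 2.19 for Myl9, 1.51 for Ssh1 and 1.19 for Limk1. Actb made up 80.8% to 82.6% of the summed TPM of the 10 genes in Pak4_KO libraries, against 81.6% to 82.7% in WT libraries.

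**Figure D1:**
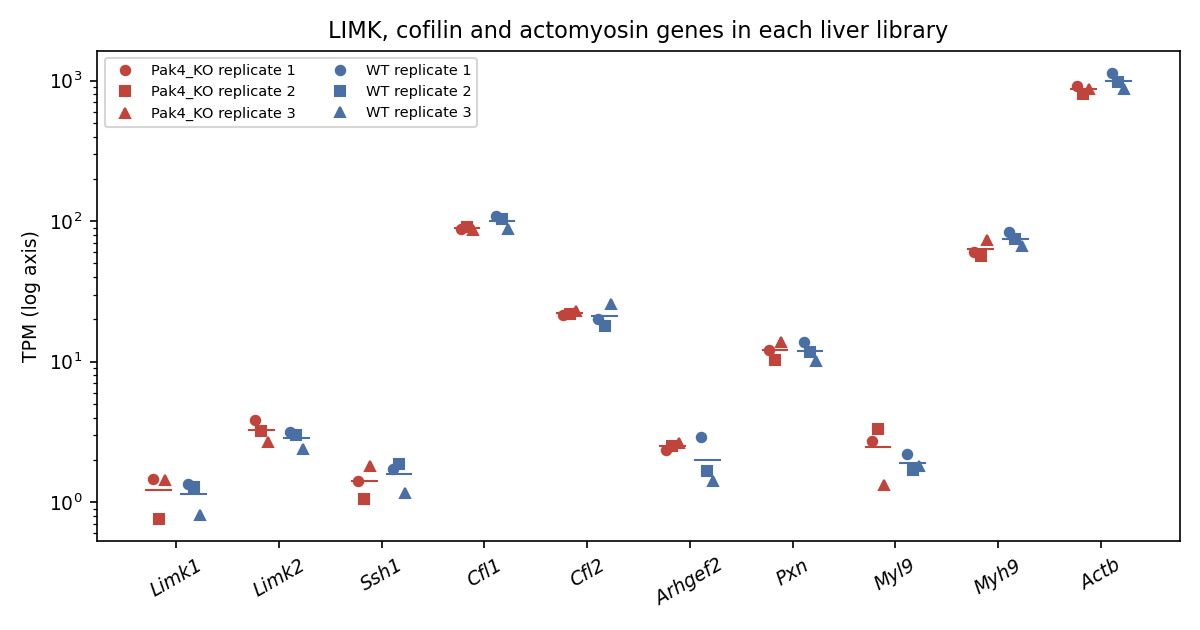
Each point is the TPM of 1 gene in 1 liver library, on a log axis, with Pak4_KO in red left of WT in blue, 1 symbol per replicate number and a line at the group mean (n = 3). The genes differ far more from each other, from a mean of 1.19 TPM for Limk1 to 808 to 1132 TPM for Actb, than the genotypes differ for any of them.

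None of the 10 members was called by edgeR's quasi-likelihood test at an adjusted p under 0.05, where 0.469% of the 16197 tested genes were called, 76 in all. All 10 passed the filter on low counts. For each of them, fewer cells of a type and less RNA per cell cannot be told apart in whole liver. At an unadjusted p under 0.05 there was 1 member, Myh9, where 8.21% of tested genes lay under that value. DESeq2's Wald test and limma-voom also called 0 members, with 2 and 1 at an unadjusted p under 0.05. A negative log2 fold change was found for 7 of the 10 members and for 49.3% of all tested genes. The median over the members was -0.07, against 0.00449 over all tested genes. Scaling by library size alone, log2(TPM + 1) and log2(TPM + 0.1) moved the median of all tested genes up, to 0.0558, 0.0558 and 0.0818, and the members' median on these scales was -0.02, 0.034 and 0.045, below that of all genes on each. Over the 6 fits without 1 library the members' median ran from -0.212 without WT replicate 3 to -0.0305 without Pak4_KO replicate 2. The 95% interval of the log2 fold change lay between -1 and 1 for 9 of the 10 members, so a change beyond 2-fold in either direction lies outside the interval of those 9 genes, and the interval of Myl9 reached 1.19.

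**Figure D2:**
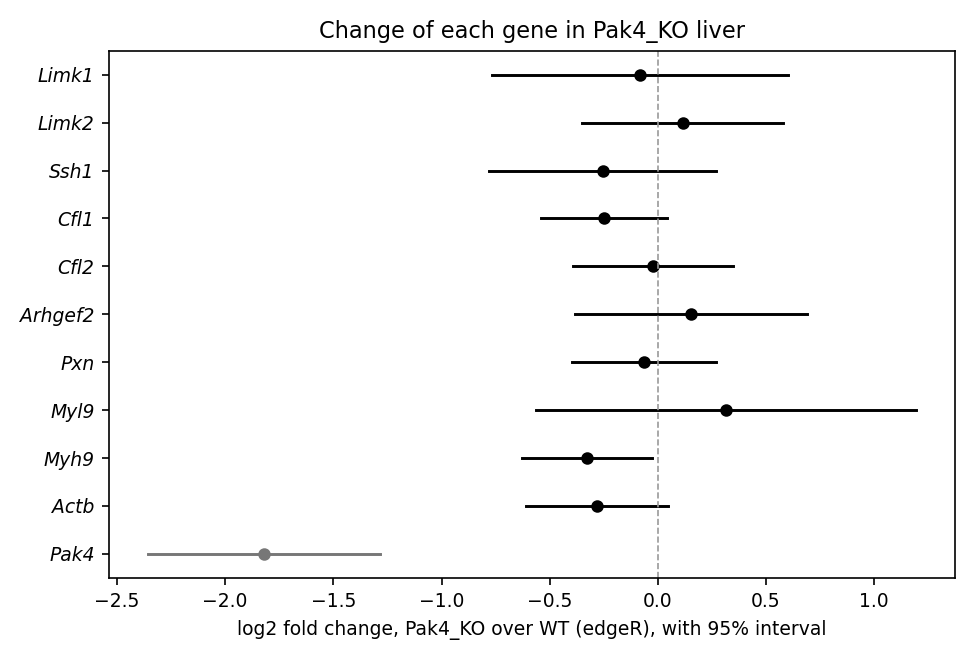
The log2 fold change of each gene, Pak4_KO over WT, with its 95% interval from the edgeR fit of all 6 libraries, not adjusted for the number of genes. The intervals of 9 members include 0, that of Myh9 ends at -0.03, and Pak4, drawn in grey for scale, stands at -1.82 apart from all of them.

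Limk1 and Limk2, the kinases that inactivate cofilin, were both rare in liver and showed no called change. Limk1 (chromosome 5, 134656039 to 134689859) had 119, 78 and 133 reads in Pak4_KO libraries, against 112, 138 and 91 reads in WT libraries. Its lowest and highest levels in CPM (reads scaled to a common library total) were 1.65 in Pak4_KO replicate 2 and 2.90 in WT replicate 2, and the groups overlapped throughout. Its log2 fold change was -0.08 (SE 0.30, edgeR adjusted p = 0.984, 95% interval -0.77 to 0.60), and on both TPM scales, where the median of all genes is higher, it was 0.043 and 0.064, below that median. Limk2 (chromosome 11, 3343297 to 3409276) had 433, 421 and 335 reads in Pak4_KO libraries, against 337, 408 and 340 reads in WT libraries. Pak4_KO replicate 1 was the highest at 10.2 CPM and Pak4_KO replicate 3 the lowest at 6.70 CPM, so the Pak4_KO libraries enclosed the WT range, and the log2 fold change was 0.11 (SE 0.20, edgeR adjusted p = 0.952, 95% interval -0.35 to 0.58).

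Limk2 supplied most of the LIM kinase message in both genotypes. The share of Limk1 in the summed TPM of the pair was 27.6%, 19.1% and 34.7% in Pak4_KO libraries, against 29.9%, 29.8% and 25.3% in WT libraries. The means were 27.1% ± 7.85 in Pak4_KO and 28.3% ± 2.65 in WT (SD, n = 3 each; exact two-sided permutation test, p = 0.8, where 3 against 3 cannot go below 0.1). The difference of -1.21 percentage points was smaller than the spread between libraries of either group, and it was 2.83 without Pak4_KO replicate 2, -5.01 without Pak4_KO replicate 3, -0.433 without WT replicate 1, -0.454 without WT replicate 2 and -2.74 without WT replicate 3.

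Ssh1, 1 of the slingshot phosphatases that restore active cofilin, was also expressed at a low level, at 1.42 TPM in Pak4_KO and 1.59 in WT. Ssh2 and Ssh3, named after their values were seen, were more abundant by length. They stood at 6.54 ± 1.46 and 7.88 ± 0.466 TPM in Pak4_KO, against 5.81 ± 0.861 and 7.27 ± 0.904 TPM in WT (SD, n = 3 each). Their log2 fold changes were 0.07 (SE 0.13) and 0.03 (SE 0.14). Ssh1 (chromosome 5, 113937094 to 113993803) had 294, 256 and 409 reads in Pak4_KO libraries, against 337, 465 and 314 reads in WT libraries. In CPM these were 6.94, 5.42 and 8.18 in Pak4_KO, against 8.50, 9.79 and 6.24 in WT. WT replicate 3 lay below 2 of the 3 Pak4_KO libraries, so the groups overlapped. On the log2 scale Ssh1 differed by -0.26 (SE 0.23, edgeR adjusted p = 0.861, 95% interval -0.78 to 0.27), and it was negative in each of the 17 alternatives run. Its size depended on single libraries, at -0.11 without Pak4_KO replicate 2 and without WT replicate 2, -0.40 without Pak4_KO replicate 3 and -0.42 without WT replicate 3.

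Cfl1, the non-muscle cofilin and a target at the end of the LIMK branch, was the second most abundant member. Dstn, a gene of the cofilin cycle list named after its values were seen, was more abundant by length. It stood at 197 ± 29.7 TPM in Pak4_KO and 209 ± 28.8 TPM in WT (SD, n = 3 each). The log2 fold change of Dstn was -0.16 (SE 0.17, edgeR adjusted p = 0.895). Cfl1 (chromosome 19, 5490455 to 5494031) had 2575, 3077 and 2789 reads in Pak4_KO libraries, against 2989, 3638 and 3225 reads in WT libraries. In CPM these were 60.8, 65.1 and 55.8 in Pak4_KO, against 75.4, 76.6 and 64.1 in WT. The groups overlapped through Pak4_KO replicate 2 and WT replicate 3, and the log2 fold change was -0.25 (SE 0.13, edgeR adjusted p = 0.680, 95% interval -0.54 to 0.04), so the data did not separate no change from a level 1.46-fold lower. The closest copy of Cfl1, the processed pseudogene Gm6180 at 98.8% identity, took 2, 6 and 3 reads in Pak4_KO libraries, against 6, 6 and 2 reads in WT libraries, which is small beside Cfl1. Exons of Snx32 on the opposite strand overlap Cfl1 by 354 bases, and Snx32 had 52, 55 and 62 reads in Pak4_KO libraries, against 48, 29 and 61 reads in WT libraries.

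Cfl2, the cofilin named for muscle, was present in these livers as well. Cfl2 (chromosome 12, 54858815 to 54862877) had 1567, 1850 and 1826 reads in Pak4_KO libraries, against 1368, 1552 and 2380 reads in WT libraries. In CPM the Pak4_KO libraries lay close together at 37.0, 39.2 and 36.5, while the WT libraries stood at 34.5, 32.7 and 47.3, on both sides of them. For Cfl2 the log2 fold change was -0.02 (SE 0.16, edgeR adjusted p = 0.996, 95% interval -0.39 to 0.35), and it was 0.031 with library size scaling and 0.076 and 0.080 on the TPM scales, where the median of all genes was 0.0558, 0.0558 and 0.0818. Per length, the level of Cfl1 was 4.01 times that of Cfl2 in Pak4_KO and 4.72 times in WT. The share of Cfl1 in the summed TPM of both cofilins was 80.4%, 80.6% and 79.2% in Pak4_KO libraries, against 84.5%, 85.4% and 77.2% in WT libraries. WT replicate 3 was below each Pak4_KO library and the other 2 WT libraries were above them. The means were 80.0% ± 0.751 in Pak4_KO and 82.4% ± 4.46 in WT (SD, n = 3 each; exact two-sided permutation test, p = 0.4). The difference of -2.32 percentage points was -1.27 without WT replicate 1, -0.818 without WT replicate 2 and -4.89 without WT replicate 3.

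Arhgef2 and Pxn encode GEF-H1, an exchange factor that sits on microtubules, and paxillin, a scaffold of integrin adhesions. Arhgef2 (chromosome 3, 88593105 to 88649532) had 320, 345 and 386 reads in Pak4_KO libraries, against 370, 269 and 269 reads in WT libraries. In CPM the Pak4_KO libraries stood at 7.55, 7.30 and 7.72, against 9.34, 5.66 and 5.35 in WT, so WT replicate 1 was above all Pak4_KO libraries and the other 2 WT libraries were below them. For Arhgef2 the log2 fold change was 0.15 (SE 0.23, edgeR adjusted p = 0.938, 95% interval -0.38 to 0.69). It ranged from 0.008 to 0.44 over the 6 fits without 1 library, both ends coming from which WT library was left out.

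Pxn (chromosome 5, 115491970 to 115555987) had 1125, 1098 and 1408 reads in Pak4_KO libraries, against 1199, 1312 and 1193 reads in WT libraries. In CPM these were 26.5, 23.2 and 28.2 in Pak4_KO, against 30.3, 27.6 and 23.7 in WT, and the groups overlapped. Between the genotypes the log2 fold change was -0.07 (SE 0.15, edgeR adjusted p = 0.962, 95% interval -0.40 to 0.27), and on both TPM scales it was 0.025 and 0.027, below the median of all genes there.

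The actomyosin members were the motor chain Myh9, the regulatory light chain Myl9 and the cytoplasmic actin Actb. Myh9, the heavy chain of non-muscle myosin IIA (chromosome 15, 77760585 to 77842175), had 11101, 12041 and 14670 reads in Pak4_KO libraries, against 14401, 16372 and 15467 reads in WT libraries. In CPM these were 262, 255 and 293 in Pak4_KO, against 363, 345 and 307 in WT, with no overlap between the groups. The means were 270.1 ± 20.6 CPM in Pak4_KO and 338 ± 28.5 CPM in WT (SD, n = 3 each), and the log2 fold change between them was -0.33 with SE 0.13 (edgeR adjusted p = 0.562, unadjusted p = 0.0368). The 95% interval ran from -0.63 to -0.03. In TPM the groups overlapped, with 60.8, 56.7 and 72.9 in Pak4_KO against 83.6, 74.5 and 66.8 in WT.

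Actb, which encodes β-actin and is often used as a reference gene (chromosome 5, 142903115 to 142907976), had 43545, 44330 and 45251 reads in Pak4_KO libraries, against 50402, 55916 and 52297 reads in WT libraries. In CPM these were 1027, 938 and 905 in Pak4_KO, against 1272, 1177 and 1039.7 in WT. The groups were apart by a narrow margin, between Pak4_KO replicate 1 and WT replicate 3, and in TPM those libraries overlapped at 923 in Pak4_KO replicate 1 and 875 in WT replicate 3. For Actb the log2 fold change was -0.28 (SE 0.14, edgeR adjusted p = 0.677, 95% interval -0.61 to 0.05). The closest copy of Actb in the table, Gm15725, was 91.8% identical and had 2 to 4 reads in each library. Other pseudogene copies held more. Gm12715, 88.8% identical, had 2231, 2483 and 2016 reads in Pak4_KO libraries, against 2729, 2900 and 2179 reads in WT libraries. Gm8399, 87.6% identical, had 347 to 446 reads. An annotated transcript of Lrrc58 carries an Actb-like stretch of 1888 bases at 89.6% identity, and Lrrc58 had 9360 to 22459 reads. Whether the counting divided reads between these genes was not tested. Actg1, the γ-actin gene and 87.8% identical, had 151, 152 and 118 CPM in Pak4_KO libraries, against 207, 185 and 130.4 CPM in WT libraries (log2 fold change -0.31, SE 0.19, edgeR adjusted p = 0.752; named after its values were seen). WT replicate 3 was the lowest WT library for Myh9, Actb, Cfl1 and Actg1 alike.

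Groups that did not overlap in CPM were found for 2 of the 10 members, Myh9 and Actb, both lower in Pak4_KO. Over all tested genes, 13.4% showed no overlap, 7.35% being higher and 6.06% lower in Pak4_KO. Neither was called. Relative to Actb, the level of Myh9 was 6.58, 7.01 and 8.37 TPM per 100 TPM of Actb in Pak4_KO libraries, against 7.38, 7.56 and 7.64 in WT libraries. That of Cfl1 was 9.59, 11.3 and 9.99 in Pak4_KO libraries, against 9.61, 10.6 and 10.0 in WT libraries. Both ratios overlapped between the genotypes. By library, WT replicate 1 held the highest CPM for 4 of the 10 members and WT replicate 2 for 3, while Pak4_KO replicates 2 and 3 each held the lowest for 4.

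Myl9, the regulatory light chain typical of smooth muscle and other contractile cells (chromosome 2, 156775408 to 156781657), was the member with the fewest reads. It had 74, 105 and 40 reads in Pak4_KO libraries, against 57, 55 and 62 reads in WT libraries. The Pak4_KO libraries held both the highest and the lowest value, at 2.22 and 0.8002 CPM, on either side of the WT libraries at 1.44, 1.16 and 1.23 CPM. For Myl9 the log2 fold change was 0.32 (SE 0.38, edgeR adjusted p = 0.918, 95% interval -0.56 to 1.19), and without Pak4_KO replicate 2 it was -0.0066. Its non-muscle relatives Myl12a and Myl12b, 85.7% and 86.5% identical and named after their values were seen, were more abundant by length. Myl9 stood at 2.47 ± 1.03 TPM in Pak4_KO and 1.91 ± 0.275 TPM in WT. Myl12a stood at 39.6 ± 4.08 TPM in Pak4_KO and 40.6 ± 6.75 TPM in WT, and Myl12b at 52.8 ± 4.53 TPM in Pak4_KO and 48.7 ± 1.16 TPM in WT (SD, n = 3 each). How the counting treated reads shared by these genes is not given in the sources used here, and the reads of Myl9 are few enough for that to matter.

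**Figure D3:**
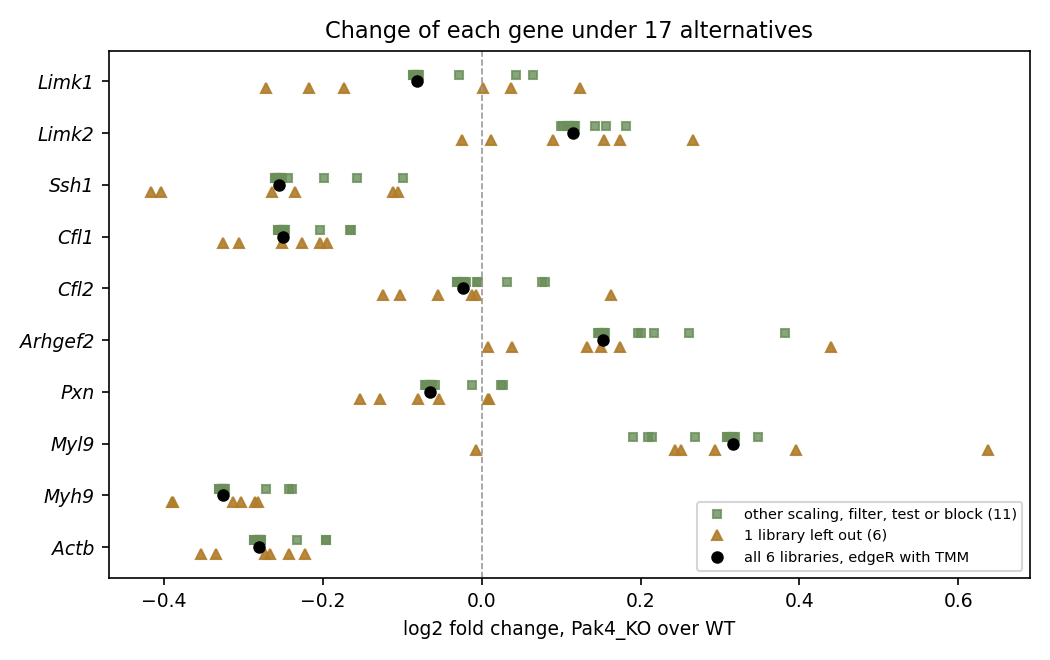
Each row is 1 gene, and the horizontal axis is its log2 fold change, Pak4_KO over WT. Black points are the edgeR fit of all 6 libraries, green squares the 11 other scalings, filters, tests and the replicate block, and brown triangles the 6 fits without 1 library. Cfl1, Ssh1, Myh9 and Actb stay below 0 and Arhgef2 stays above 0 in all of these, while the signs of Limk1, Limk2, Cfl2, Pxn and Myl9 turn in at least 1.

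Around the 10 genes, 149 further genes were followed in 6 lists, 5 of which are described, and 140 of these genes passed the filter on low counts. Most belong to actin pathways, but the SRF and MRTF list also holds genes outside the actin cytoskeleton, such as Fos, Egr1, Mcl1 and Krt18. Of these 140 genes, 0 were called by edgeR and by limma-voom, against 0.469% of all tested genes, and DESeq2's Wald test called 2, Krt18 and Tpm2. At an unadjusted p under 0.05 there were 2 higher and 9 lower, where 4.51% of all tested genes were higher and 3.69% lower. Of the 9 lower genes, 5 came from the SRF and MRTF list. The median over the 140 genes was -0.05.

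The cofilin cycle list holds the other regulators of cofilin and actin turnover, with a median of -0.002 over 19 tested genes, 9 positive and 10 negative. Gsn, which encodes the severing protein gelsolin, had the smallest p, at 19.0, 16.0 and 20.0 CPM in Pak4_KO libraries, against 13.9, 12.2 and 11.4 CPM in WT libraries (log2 fold change 0.55, SE 0.15, edgeR adjusted p = 0.282). Coro1a, a coronin of blood cells, stood at 8.36 ± 1.34 CPM in Pak4_KO and 13.6 ± 4.71 CPM in WT (SD, n = 3 each; log2 fold change -0.70, SE 0.26, edgeR adjusted p = 0.5001).

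Actins, myosins and tropomyosins held the smallest p of all 6 lists. Tpm2, β-tropomyosin, which winds along actin filaments in muscle and other contractile cells, had 128, 212 and 191 reads in Pak4_KO libraries, against 43, 79 and 67 reads in WT libraries. All Pak4_KO libraries were above all WT libraries, at 3.02, 4.49 and 3.82 CPM in Pak4_KO against 1.09, 1.66 and 1.33 CPM in WT. Tpm2 was 2.77-fold higher on average, or 1.47 on the log2 scale with SE 0.27 (edgeR adjusted p = 0.0717), with a 95% interval of 0.86 to 2.08. The adjusted p was 0.000263 by DESeq2's Wald test and 0.0548 to 0.283 in the other 16 alternatives. Cnn2, a calponin, stood at 2.92 ± 0.372 CPM in Pak4_KO and 3.95 ± 1.29 CPM in WT (SD, n = 3 each; log2 fold change -0.44, SE 0.27, edgeR adjusted p = 0.749). The median over the 24 tested genes of this list was -0.06, with 10 positive and 14 negative.

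Focal adhesion genes had a median of -0.03 over 30 tested genes, 13 positive and 17 negative. Lims2, a PINCH adaptor that binds integrin-linked kinase, stood at 33.2 ± 2.98 CPM in Pak4_KO and 45.2 ± 9.67 CPM in WT (SD, n = 3 each; log2 fold change -0.44, SE 0.17, edgeR adjusted p = 0.533). Zyx, which encodes zyxin, stood at 10.5 ± 0.928 CPM in Pak4_KO and 13.8 ± 2.33 CPM in WT (log2 fold change -0.39, SE 0.17, edgeR adjusted p = 0.617). The Arp2/3, WAVE and formin list, the machinery that nucleates filaments, had a median of -0.07 over 26 genes, 7 positive and 19 negative, and 0 at an unadjusted p under 0.05. Its smallest p values were those of Wasl, which encodes N-WASP (log2 fold change -0.27, SE 0.14, edgeR adjusted p = 0.689), and Capzb, a filament capping subunit (log2 fold change -0.25, SE 0.13, edgeR adjusted p = 0.698).

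SRF and MRTF form the transcription factor pair that senses free actin monomers and drives many actin genes. Their list had the lowest median of the 6, -0.28 over 16 tested genes, with 14 negative, 2 positive and 5 at an unadjusted p under 0.05. Krt18, a keratin of hepatocytes and bile duct cells, stood at 203, 270.4 and 320.4 CPM in Pak4_KO libraries, against 414, 411 and 406 CPM in WT libraries (log2 fold change -0.63, SE 0.17, edgeR adjusted p = 0.282). Tuft1 stood at 4.99 ± 0.745 CPM in Pak4_KO and 8.03 ± 1.57 CPM in WT (SD, n = 3 each; log2 fold change -0.68, SE 0.21, edgeR adjusted p = 0.372). Of the immediate early genes in the list, Fos stood at 3.44 ± 0.1097 CPM in Pak4_KO and 12.5 ± 10.8 CPM in WT, and Ccn1 at 2.03 ± 0.923 CPM in Pak4_KO and 5.30 ± 2.46 CPM in WT (SD, n = 3 each; edgeR adjusted p = 0.556 and 0.413). Among the others, Ier2 had a log2 fold change of -0.75 (SE 0.35), Egr1 -0.60 (SE 0.35), Ccn2 -0.02 (SE 0.45) and Junb 0.29 (SE 0.18), or 140 ± 21.7 CPM in Pak4_KO and 115 ± 20.8 CPM in WT (SD, n = 3 each). These genes were named after their values were seen. Without WT replicate 3, edgeR called 2 genes of the 6 lists, Fos and Fosb. Srf itself had a log2 fold change of -0.12 (SE 0.18), Mrtfa 0.36 (SE 0.20) and Mrtfb -0.13 (SE 0.23).

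**Figure D4:**
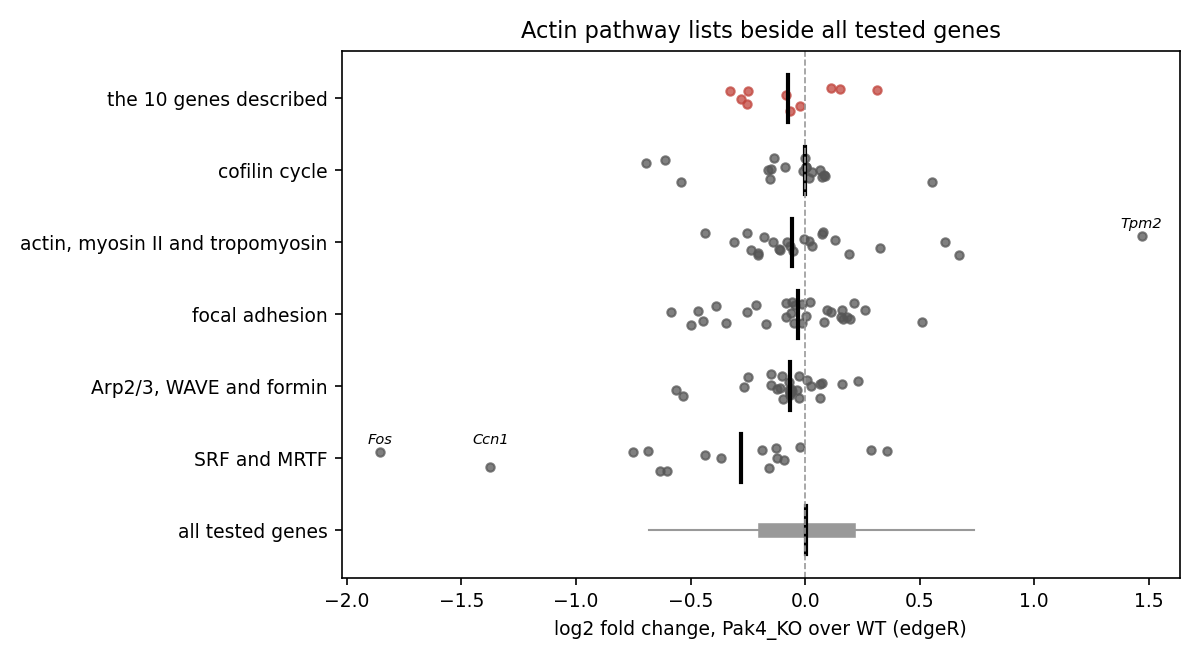
Each point is the log2 fold change, Pak4_KO over WT, of 1 tested gene, in red for the 10 genes described and in grey for 5 of the 6 actin lists, with a black bar at the median and points spread vertically for legibility. The lowest row gives all 16197 tested genes, the thick line from the 25th to the 75th percentile (-0.17 to 0.19) and the thin line from the 5th to the 95th (-0.68 to 0.74). Medians lie near 0 except that of the SRF and MRTF list at -0.28. The named points are Tpm2 at 1.47, Fos at -1.86 and Ccn1 at -1.37.

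Promoters of the members were searched for 5 motifs, among them the CArG box, the DNA motif that SRF binds. RefSeq promoters of GRCm38.p6 (250 bases before to 50 after each start) were found for 8 of the 10 members, 14 promoters in all, and not for Actb and Pxn. A CArG box occurred in the promoter of Myl9 alone among these, and in 1.63% of all 32851 promoters, both strands searched. Of the 14 promoters, GGGCGG, the core of a GC box, occurred in 10, against 35.7% of all promoters, TATAAA in 1, against 13.6%, CATTCC in 0, against 14.7%, and CANNTG in 9, against 72.3%. The stretch from 220 to 71 bases before the start is shown for Myl9 with the CArG box in capitals, 161 bases before the start and chosen after the match was seen, and for Myh9, the member with the smallest p, with GGGCGG in capitals.
Myl9, chr2:156775244-156775393, plus strand: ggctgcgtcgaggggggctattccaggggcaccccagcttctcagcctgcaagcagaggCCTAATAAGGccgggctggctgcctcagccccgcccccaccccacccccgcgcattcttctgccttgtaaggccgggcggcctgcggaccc
Myh9, chr15:77842246-77842395, minus strand: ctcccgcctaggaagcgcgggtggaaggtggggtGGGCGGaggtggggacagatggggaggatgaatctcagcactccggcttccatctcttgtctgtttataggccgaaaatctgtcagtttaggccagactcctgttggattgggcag
These matches are letters in a window and do not show binding.

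Markers of 11 cell types were followed beside the actin genes. Hepatocyte markers dominated all libraries, with Alb at 30971 ± 1958 TPM in Pak4_KO and 23490.2 ± 3916 TPM in WT (SD, n = 3 each) and all 12 markers read in each library. Of the 12, 4 were positive and 8 negative, with a median log2 fold change of -0.08. With no overlap in CPM, Alb was higher (0.31, SE 0.20) and Serpina1a lower (-0.36, SE 0.17), where 13.4% of all tested genes did not overlap. The summed TPM of 13 Kupffer cell and macrophage markers was 580, 480.4 and 538 in Pak4_KO libraries, against 614, 574 and 492 in WT libraries, and 12 of the 13 had a negative log2 fold change. Of these 12, 3 were at an unadjusted p under 0.05 and 2 showed no overlap, while 1 marker, Cd14, was higher at that p. Within WT the sum of these markers followed the same library order as Actb, with WT replicate 1 highest and WT replicate 3 lowest. Within Pak4_KO the sum was lowest in replicate 2, where Actb was lowest in TPM, at 808, but not in CPM, at 938 against 905 in replicate 3. An order of 3 libraries cannot show a link. The sum of 10 neutrophil markers, most of it the acute phase gene Lcn2, ran from 941 to 1248 TPM in Pak4_KO and from 1180.3 to 1604 TPM in WT. All 10 were negative with a median log2 fold change of -0.77, 7 of them at an unadjusted p under 0.05 and 4 with no overlap, among them Cxcr2 (-1.30, SE 0.28) and S100a9 (-0.86, SE 0.22). Of all tested genes, 3.69% were lower at that p and 6.06% lower with no overlap. The sum of 13 lymphocyte markers ran from 5.56 to 6.10 TPM in Pak4_KO and from 5.83 to 12.3 TPM in WT. Smooth muscle markers, beside which Myl9 and Tpm2 are usually found, summed to 7.81, 8.97 and 3.74 TPM in Pak4_KO libraries, against 5.47, 5.44 and 4.26 TPM in WT libraries, with 5 of 8 read in each library. Of 5 tested, 4 were positive and 1 negative, with a median log2 fold change of 0.61 and 0 at an unadjusted p under 0.05. Synpo2, at 0.470 CPM in Pak4_KO and 0.213 CPM in WT, was higher with no overlap, where 7.35% of all tested genes were. The summed smooth muscle level was lowest in Pak4_KO replicate 3 and highest in Pak4_KO replicate 2, as was Myl9. Tpm2 was at 3.02, 4.49 and 3.82 CPM in Pak4_KO libraries, each above every WT library. Whether these orders are linked was not tested. Cholangiocyte markers summed to 49.6, 51.2 and 87.2 TPM in Pak4_KO libraries, against 56.3, 33.5 and 34.7 TPM in WT libraries, with 8 of 9 tested members positive. Of these, 3 were at an unadjusted p under 0.05 and 3 showed no overlap, where 4.51% and 7.35% of all tested genes were higher in these ways. Endothelial markers ran from 177 to 270.1 TPM in Pak4_KO and from 159 to 199 TPM in WT with 13 of 14 positive, stellate cell and fibroblast markers from 138 to 292 in Pak4_KO and from 147 to 217 in WT, and platelet markers from 3.50 to 5.22 in Pak4_KO and from 3.85 to 6.97 in WT. Erythroid markers ran from 517 to 729 TPM in Pak4_KO and from 401 to 884 TPM in WT, and mesothelial markers from 0.969 to 1.99 in Pak4_KO and from 1.95 to 4.53 in WT. At an unadjusted p under 0.05, 3 stellate cell and fibroblast and 2 endothelial markers were higher, and 2 lymphocyte markers and 1 mesothelial marker lower. None of the marker genes in these 11 lists was called by edgeR, and their part in the values of the actin genes was not tested.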

How the data were processed

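Liver RNA was extracted with Trizol and sequenced as TruSeq Stranded mRNA libraries, per the labels' protocols. Per the submitters' processing notes, the tools included HISAT2 2.1.0 and StringTie 2.1.3b with build mm10. Neither the strand setting nor the handling of multiply matching reads is given in the sources used here. Per the file headers, the deposited table holds read counts per gene, without normalization. Beside them, the authors deposited TPM and FPKM, both scaled by gene length and library, per the file headers.

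The main test was edgeR 4.0.16 under R 4.3.3 on the counts (filterByExpr, TMM factors, glmQLFit and glmQLFTest, two-sided, 16197 of 45777 genes), with Benjamini-Hochberg adjustment over all tested genes and calls at an adjusted p under 0.05. Standard errors were derived from F as |log2 fold change| / √F, and 95% intervals use the fit's total degrees of freedom. CPM are scaled by TMM. TPM served for levels between genes, marker sums and shares, and FPKM for an alternative of the shares. The procedure was tested on simulated data. Alternatives were DESeq2 1.42.0 (size factors, or Wald test), upper quartile or library size scaling, no filter, a minimum of 10 reads in each library, limma 3.58.1 (voom, or trend on log2(TPM + 1) and log2(TPM + 0.1)), robust edgeR, a replicate block, and fits without 1 library. Similar transcripts were found with blastn 2.17.0 in GENCODE M21 (at least 85% identity over 0.5 of the copy or 0.4 of the member), a step added after the data were seen.

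The members and lists were chosen with earlier results of these data known. By the rule, the text names all members, the PAK family and, from each list, up to 4 called genes or else the 2 with the smallest p, and promoters of the members with the smallest p. Gene IDs matched RefSeq of GRCm38.p6 for 45679 of 45777 genes, and coordinates are 1-based from it. Protein sequences were not used here, and 1 of the 6 lists is not reported here.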

Additional observations from a re-analysis of the deposited data

How the results depend on the processing

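None of the 10 members was called in any of the 17 alternatives, 170 fits of a member in all, and the lowest adjusted p was 0.359, for Myh9 with DESeq2's Wald test. Cfl1, Ssh1, Arhgef2, Myh9 and Actb kept their sign throughout. Library size scaling and both TPM scales moved the median of all tested genes from 0.00449 to 0.0558, 0.0558 and 0.0818. The log2 fold change turned sign for Cfl2 with library size scaling (0.031), on log2(TPM + 1) (0.076) and on log2(TPM + 0.1) (0.080), for Limk1 on the same TPM scales (0.043 and 0.064) and for Pxn likewise (0.025 and 0.027), all below that median except Cfl2 on log2(TPM + 1). Over the 6 fits without 1 library it ran from -0.27 to 0.12 for Limk1, from -0.025 to 0.27 for Limk2, from -0.12 to 0.16 for Cfl2, from -0.15 to 0.0095 for Pxn and from -0.0066 to 0.64 for Myl9. The difference in the share of Limk1 ran from -5.01 to 2.83 percentage points and that of Cfl1 from -4.89 to -0.818. The log2 fold change of Pak4 ran from -1.99 to -1.65, with the call lost in 3 of the 6. The count of called genes was 334 by DESeq2's Wald test and 44 with at least 10 reads in every library, against 76, and 37 to 81 without 1 library: 38 without Pak4_KO replicate 2, 37 without Pak4_KO replicate 3, 44 without WT replicate 1 and 46 without WT replicate 2. Called genes of the 6 actin lists numbered 2 by DESeq2 and 0 to 2 without 1 library. The cause of these shifts was not tested.

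Deviations from the group means correlated at 0.08, -0.28 and 0.18 (across genes) between libraries of the same replicate number, 1, 2 and 3. Between libraries of unlike number the correlations ran from -0.32 to 0.25. With 3 libraries per group these values constrain each other, so they cannot show whether the replicate numbers pair the libraries. With the replicate number as a block, 73 genes and 0 members were called. At 40 to 138 reads per library, Myl9 and Limk1 had the fewest reads of the members and the largest standard errors, 0.38 and 0.30. How much of this comes from depth was not tested.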
